A study of Mus musculus with 2 samples.

Results

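The distal stretch of the imprinted Dlk1-Dio3 region of mouse chromosome 12 carries the long microRNA cluster that runs from Mir379 to Mir410. Its members were taken by position, as every microRNA gene of the deposited tables that starts in a fixed window around the cluster (build mm10). This gave 38 of the 1973 microRNA genes, 34 on the plus strand and 4 on the minus strand, which lie on chromosome 12 between 109709060 and 109747960. Small RNA had been sequenced from forebrain of B6NCrl mouse embryos at embryonic day 13.5, male and female tissue pooled, and the labels name no allele, treatment or transgene. The study holds 2 libraries of this 1 group, made from total RNA and limited to RNA shorter than 30 nucleotides (nt). They are labelled biological replicates 1 and 2. Both carry 1 donor identifier, and how embryos were divided between the pools is not stated, so their spread may be partly technical. No comparison between conditions exists in this design. The questions open to these data are how reads are spread over the members and how far that pattern repeats.

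As background, genes of this region are imprinted, and the microRNAs are expressed from the maternally inherited chromosome as parts of long non-coding transcripts. A microRNA is cut from a hairpin in its transcript, and either arm of the hairpin (5p or 3p) can be kept as the mature strand. Bases 2 to 8 of the mature strand, the seed, pair with target messages, and microRNAs with the same seed share many predicted targets. The cluster is found in placental mammals, arose largely by tandem duplication and is prominent in brain. Mice that lack it show impaired metabolic adaptation at birth and altered anxiety-related behaviour.

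Mature sequences for the members came from RefSeq (GRCm38.p6). The table gave 69 of them, 19 to 25 nt long, for 37 members, both arms for 32, and the sequences below are written 5′ to 3′ with the seed in capitals. The first set belongs to 7 of the 8 members with the most reads. All its seeds differ, though those of miR-487b-5p and miR-409-5p are close. For Mir487b only the 5p strand was available. Reads were deposited per gene, so the arms of a hairpin could not be separated.
miR-487b-5p: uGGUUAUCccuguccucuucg
miR-369-5p: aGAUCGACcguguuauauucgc
miR-369-3p: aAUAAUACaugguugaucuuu
miR-409-5p: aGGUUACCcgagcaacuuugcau
miR-409-3p: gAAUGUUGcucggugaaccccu
miR-382-5p: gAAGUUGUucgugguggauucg
miR-382-3p: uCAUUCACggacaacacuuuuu
miR-541-5p: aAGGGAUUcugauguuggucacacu
miR-541-3p: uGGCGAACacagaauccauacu
miR-376a-5p: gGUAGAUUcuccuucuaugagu
miR-376a-3p: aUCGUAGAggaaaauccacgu
miR-381-5p: aGCGAGGUugcccuuuguauauu
miR-381-3p: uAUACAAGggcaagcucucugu

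The second set holds the members that share a whole seed with another member. Over the 69 sequences there were 64 distinct seeds. Seeds were shared within 5 pairs of sequences, which came from 9 genes. None of these 5 seeds occurred among 1610 other mouse mature sequences, which include those of Mir299b and Mir376b in the cluster window. Arms without a sequence here, such as the 3p strands of Mir487b, Mir539 and Mir376c, were not searched. Further shared seeds are therefore possible. miR-411-5p is printed with them because it differs from miR-379-5p by 1 base of the seed.
miR-379-3p: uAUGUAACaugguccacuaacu
miR-411-3p: uAUGUAACacgguccacuaacc
miR-379-5p: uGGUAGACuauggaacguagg
miR-1193-5p: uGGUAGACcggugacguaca
miR-411-5p: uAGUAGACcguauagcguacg
miR-494-5p: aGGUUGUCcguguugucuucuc
miR-410-5p: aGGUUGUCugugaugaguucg
miR-453: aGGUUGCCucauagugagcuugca
miR-496a-5p: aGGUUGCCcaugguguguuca
miR-1197-5p: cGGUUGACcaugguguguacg
miR-758-5p: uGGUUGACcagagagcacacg

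Replicate 1 held 10631040 reads and replicate 2 held 10452225. Counts used here were those on the strand of each gene, with reads on the opposite strand used for the 4 minus-strand members. They came to 4171002 (39.2% of reads) and 3947090 (37.8%). Levels are in CPM, counts per 1000000 of these, so 1 count was 0.240 CPM in replicate 1 and 0.253 CPM in replicate 2. Reads that mapped to several places, 40.6% and 43.9% of the total, are listed apart and belong to no gene. Neural markers were present: 8 of 10 were detected, among them Mir92b at 13279 ± 623 CPM (SD, n = 2) and Mir137 at 7762 ± 1524 CPM. The genes of neuronal miR-124 had few counts, from 3 and 3 for Mir124a-3 to 20 and 19 for Mir124a-2. Reads that map to more than 1 of these genes are counted for none, so these counts do not give the level of miR-124. The same limit holds for any marker gene that shares its mature sequence with another gene. Of the 6 muscle genes Mir1a-1, Mir133a-1 and Mir133b were at 0 in both libraries, while Mir208b had 156 and 132 counts, Mir206 had 43 and 13, and Mir499 had 15 and 10. Liver Mir122 reached 58.5 and 52.2 CPM.

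Several members of the cluster were among the abundant microRNA genes of the embryonic forebrain. The members summed to 289122 counts in replicate 1, or 6.93% of counts (95% Wilson interval 6.91 to 6.96), and to 219083 in replicate 2, or 5.55% (5.53 to 5.57). The mean was 6.24% ± 0.977 (SD, n = 2), and without Mir487b, the leading member, it was 4.61%. Of the 38 members 35 were detected, meaning at least 10 counts in each library. Mir654 and Mir453 had 0 counts in both libraries, which allows up to 0.719 CPM in replicate 1 and 0.760 CPM in replicate 2, and Gm27379 had 1 count and 0. These limits and the intervals cover counting error only. Among the detected members 13 (37.1%) stood above 1000 CPM, against 80 (23.1%) of the 346 other detected genes. The median of the detected members was 433 CPM beside 124.9 CPM for those other genes, and 26 of the 35 stood above the latter. These levels compare reads. Those that map to several places are counted for no gene, which lowers any gene that shares its mature sequence with another. No member sequence searched here occurred whole at another annotated locus, so the comparison may favour the members. How far it does was not tested. Capture efficiency of single microRNAs was not measured, and the SD does not hold a bias that both libraries have.

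**Figure D1:**
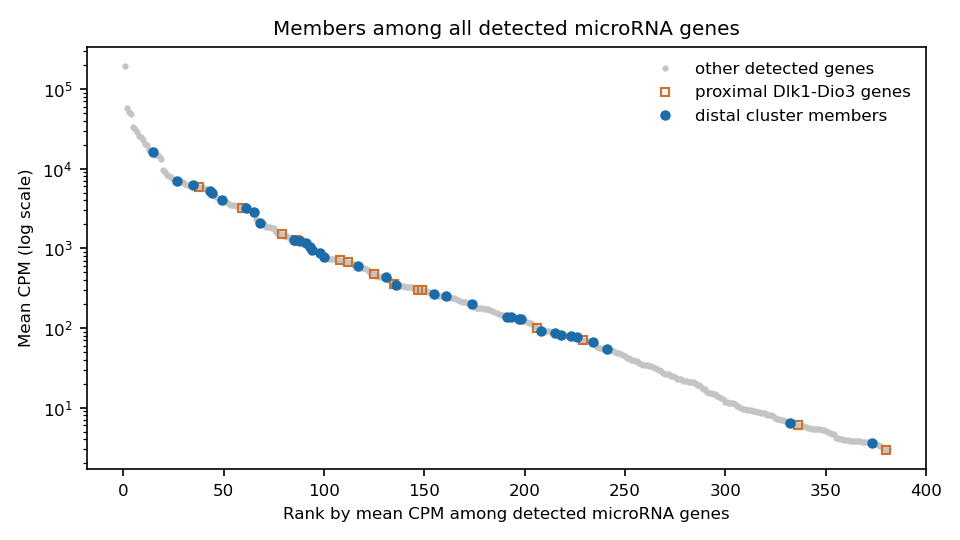
Each point is 1 detected microRNA gene, placed by its rank (horizontal) and its mean CPM over both libraries (vertical, log scale), with members of the distal cluster filled blue, proximal Dlk1-Dio3 genes as open squares and other genes grey. Members run from rank 15 (Mir487b, 16327 CPM) down to Mir1197 at 3.59 CPM, with 13 of them above 1000 CPM.

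Mir487b led the cluster. It had 79279 counts in replicate 1 and 53867 in replicate 2, or 19007 and 13647 CPM, and it ranked fifteenth among all genes by its mean of 16327 ± 3790 CPM. This 1 gene (chromosome 12, 109727333 to 109727414) held 26.0% ± 2.00 of the cluster's counts. It shares an exact stretch of 20 nt with Mir376b, which covers 0 of the 21 bases of miR-487b-5p.

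Next came Mir369, whose 3p strand is known to act on AU-rich elements and on N-cadherin in cortical neurogenesis. It had 30852 and 26822 counts, or 7396.8 and 6795 CPM, and its mean was 7096 ± 425 CPM. Mir409, whose 3p strand is known to promote corticospinal over callosal projection neuron development, had 30564 and 19733 counts and 6164 ± 1646 CPM. The order of Mir369 and Mir409 was the same in both libraries, but the gap between their means is smaller than the SD of Mir409. Mir411, a gene whose primary transcript is edited from A to I in brain, followed with 22274 and 20063 counts and 5212 ± 182 CPM. These 4 genes together held 55.7% ± 0.970 of the cluster's counts.

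Mir382 had 22615 and 17134 counts, at 4881 ± 764 CPM. Mir541 followed with 18946 and 14121 counts, at 4060 ± 682 CPM. Neither gap, from Mir411 to Mir382 or from Mir382 to Mir541, exceeded the sum of the SDs on its sides. Mir376a, another gene edited in brain, where editing falls in the seed and changes its targets, had 14300 and 11826 counts and 3212 ± 306 CPM. Mir381, which takes part in activity-dependent dendrite growth, had 13111 and 9966 counts and 2834 ± 437 CPM. With these the 8 leading genes held 79.7% ± 0.717 of the counts.

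The remaining leaders stood above 1000 CPM. Mir379, the first gene of the cluster, had 9166 and 7818 counts at 2089 ± 153 CPM. Mir1193 had 6135 and 4220 counts at 1270.0 ± 284 CPM, Mir323 had 5673 and 4421 at 1240.1 ± 170 CPM, and Mir154 had 5281 and 4276 at 1175 ± 129 CPM. The last 3 lie within an SD of Mir1193 of each other. The 12 leading members held 89.0% ± 0.446, and 23 of the other 26 were detected, between 3.59 and 1047 CPM.

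**Figure D2:**
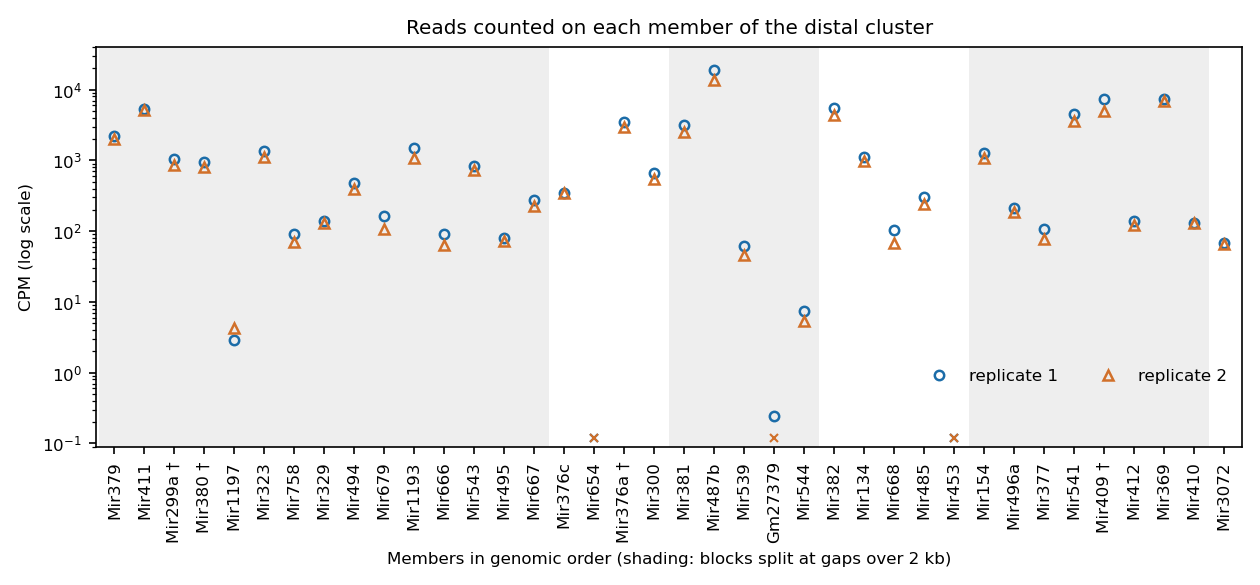
Levels in CPM (log scale) of all 38 members in genomic order, circles for replicate 1 and triangles for replicate 2, with a dagger on the 4 genes counted opposite a minus-strand gene and a cross at the bottom where a library had 0 counts. Each pair of symbols lies close together while neighbouring genes differ by up to 766-fold (Mir544 and Mir382).

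The members named here for known work in neurons ran from Mir369 at 7096 CPM down to Mir329 at 136 CPM. Mir134, which acts in dendrites and limits spine size through Limk1, was thirteenth with 4617 and 3896 counts, at 1047 ± 84.8 CPM. Mir329, which acts with Mir134 and Mir381 in dendrite growth, had only 584 and 520 counts, at 136 ± 5.85 CPM. Of these 3 genes Mir381 was the highest and Mir329 the lowest in each library, and the gaps exceeded the SDs.
miR-134-5p: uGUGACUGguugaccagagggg
miR-329-3p: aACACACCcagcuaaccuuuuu
The microRNAs miR-369-3p, miR-496 and miR-543 are known to act together on N-cadherin during cortical neurogenesis. Their genes differed widely in reads, from Mir369 at 7096 CPM through Mir543 (3475 and 2905 counts, 785 ± 68.7 CPM) to Mir496a (894 and 740 counts, 201 ± 19.0 CPM). Mir485, which acts at synapses, had 1250 and 941 counts and 269 ± 43.3 CPM.

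The lowest detected members were Mir1197, Mir544 and Mir539. Mir1197 had 12 and 17 counts, at 3.59 ± 1.01 CPM. Mir544 had 31 and 21 counts, at 6.38 ± 1.49 CPM, and Mir539 had 255 and 183, at 53.7 ± 10.4 CPM. Mir1197 and Mir544 were the only detected members below 50 counts in a library. The detected range, from Mir487b to Mir1197, was 4545-fold. Among the 33 members with at least 50 counts in each library it was 304-fold.

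Between these lay members of middle level. Mir376c had 1449 and 1377 counts, at 348 ± 1.04 CPM, and shares an exact 31-nt stretch with Mir376b that covers 18 of the 22 bases of miR-376c-5p. Mir667 had 1144 and 895 counts, Mir412 had 588 and 478, Mir377 had 445 and 305, and Mir666 had 385 and 254. Of these 5 genes each but Mir376c had the higher CPM in replicate 1, where Mir667 stood at 274 CPM and Mir666 at 92.3 CPM.

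The order of members repeated between the libraries. Of the 38 members 20 had the same rank within the cluster in both, no detected member moved by more than 3 ranks, and Spearman's rho of their levels was 0.99 (35 genes of the same 2 libraries, a description only).

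The 4 minus-strand members were measured on the opposite strand, because each lies over a plus-strand microRNA gene that the tables do not list. Mir299b lies opposite Mir299a, Gm25750 opposite Mir380, Gm25252 opposite Mir376a and Gm24321 opposite Mir409, with overlaps of 49, 61, 68 and 79 nt. These reads are given here under the plus-strand names. Mir299a had 4412 and 3434 counts, at 964 ± 133 CPM, and Mir380 had 3980 and 3153, at 877 ± 110 CPM. With Mir376a and Mir409, the 4 held 17.9% ± 0.713 of the cluster's counts, and left out they would lower its share of all counts from 6.24% to 5.18%. The 34 plus-strand members had 0 opposite-strand counts in both libraries. Mir376b and Gm44322, annotated in the same window, were not analysed here.

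Mir299a and Mir299b show why the strand matters. They are read from the same place in opposite directions, and the 18 nt of miR-299b-3p are identical to the start of miR-299a-3p, seed included.
miR-299a-3p: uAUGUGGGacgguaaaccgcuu
miR-299b-3p: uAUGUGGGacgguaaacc

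Genes that share a seed were not equally abundant. The pair with the seed AUGUAAC, Mir379 and Mir411, lies side by side at the start of the cluster, and their 3p sequences are identical at 20 of 22 positions. Together they had 31440 and 27881 counts, at 7301 ± 335 CPM, the most of the 5 pairs, and Mir411 stood 2.49-fold above Mir379. On the 5p arm Mir379 shares the seed GGUAGAC with Mir1193, where only 10 of 20 positions are identical. That pair summed to 3359 ± 437 CPM, with 15301 and 12038 counts. Because Mir379 belongs to both pairs and arms were not separated, its reads enter both sums.

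The other 3 pairs carry 5p seeds or, for miR-453, a strand without an arm in its name, and all these seeds begin with GGUUG. Mir494 (1988 and 1533 counts, 433 ± 62.4 CPM) and Mir410 (538 and 518 counts, 130.1 ± 1.59 CPM) summed to 563 ± 60.8 CPM, with 16 of 21 positions identical. Mir496a shares its seed with Mir453, which had no counts, so the pair's sum is the 201 CPM of Mir496a. Mir758 (384 and 277 counts, 81.1 ± 15.5 CPM) stood 22.6-fold above Mir1197, and they summed to 84.7 ± 14.5 CPM. In each detected pair the order of the 2 genes was the same in both libraries. With bases 2 to 7 in place of 2 to 8 there were 7 groups from 13 genes.

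Near-copies outside a shared seed were also present. The 3p strands of Mir300 and Mir381 are identical at 19 of 22 positions and differ by 1 base of the seed.
miR-300-3p: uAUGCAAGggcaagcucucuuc
miR-381-3p: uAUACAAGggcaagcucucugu
Mir300 had 2755 and 2121 counts, at 599 ± 87.1 CPM, and Mir381 stood 4.73-fold higher. Over 595 pairs of 35 hairpins the median identity was 50.6%, from 33.7 to 73.8%. The closest pair, Mir411 and Mir758 (73.8%), differed 64.2-fold in CPM, and Mir539 and Mir382 (72.7%) differed 90.8-fold. Mir411 and Mir758 share an exact 21-nt stretch that covers 12 of the 22 bases of miR-411-3p and 9 of the 19 of miR-758-3p. None of the 69 mature sequences occurred whole in an annotated microRNA transcript of another locus. Genes that overlap a member, such as Mir299b at Mir299a, were not searched, nor were arms without a sequence.

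Some seeds recur elsewhere in the genome. For 12 mature sequences from 12 genes the whole seed was found in a further microRNA, which for miR-299a-3p and miR-376c-5p was one of the cluster itself. Among them miR-329-3p shares its seed with miR-362-3p, miR-410-3p with miR-344d-3p and miR-344e-3p, and miR-495-3p with miR-1192.
miR-410-3p: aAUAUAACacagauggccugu
miR-495-3p: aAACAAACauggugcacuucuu
Mir495 had 332 and 288 counts, at 76.3 ± 4.69 CPM, so neither it nor Mir410 is among the abundant members.

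Short runs recurred in the mature strands as well. Searched on the mature strand after the sequences had been seen, the run GGUU was found in 15 of 35 member 5p sequences (42.9%) and in 74 of 662 other mouse 5p sequences (11.2%). The longer GGUUG, which contains it, was in 9 of 35 (25.7%) and 26 of 662 (3.93%). On the 3p arm GGUU was in 6.06% of member and 6.80% of other sequences, and GGUUG in 6.06% and 1.48%. The run GGUC was in 9 of 33 member 3p sequences (27.3%) and 47 of 676 others (6.95%), and on the 5p arm in 11.4% and 6.19%. Members descend from shared ancestors and are not independent, so these shares are descriptions. A further 4 runs were searched. CAUGGUC was in 0 member and 0 other 5p sequences, and in 6.06% of member and 0.148% of other 3p sequences. The shorter UGGUC was in 8.57% of member and 2.27% of other 5p sequences, and in 15.2% and 2.37% on the 3p arm. CGGU was in 8.57% and 3.32% on the 5p arm and in 18.2% and 3.99% on the 3p arm. AUACA was in 2.86% and 1.66% on the 5p arm and in 15.2% and 1.78% on the 3p arm.

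Along the chromosome, high and low members were mixed. Neighbouring detected members differed by a median of 5.80-fold (34 pairs), beside 7.09-fold over all 595 pairs, and 13 neighbouring pairs differed by more than 10-fold. The widest gap between neighbours was 766-fold, from Mir544 to Mir382. Across detected members Spearman's rho of CPM was -0.02 with the order along the cluster (35 genes), -0.09 with the GC content of the hairpin and -0.01 with its length (33 genes each, all from the same 2 libraries). Reads came from short RNA rather than from fragments of a long transcript, so CPM was not divided by length.

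Split where neighbouring starts lie over 2 kb apart, the members fell into 6 blocks. The block from Mir381 to Mir544, with Mir487b in it, held 30.6% ± 2.00 of the cluster's counts from 4 detected members of 5. The block from Mir154 to Mir410, with Mir541, Mir409 and Mir369, held 30.5% ± 0.0739 from 8 of 8. The former held more in replicate 1, the latter in replicate 2. The opening block from Mir379 to Mir667 held the most members, 15 of 15 detected, but 21.9% ± 1.38. The block from Mir382 to Mir453 held 10.1% ± 0.106 and that from Mir376c to Mir300 6.70% ± 0.420, while Mir3072, alone beyond the last gap, held 0.108% ± 0.0153 (282 and 261 counts, 66.9 ± 1.05 CPM). With a gap of 3 kb there were 3 blocks, and the first, from Mir379 to Mir544, held 59.3%.

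**Figure D3:**
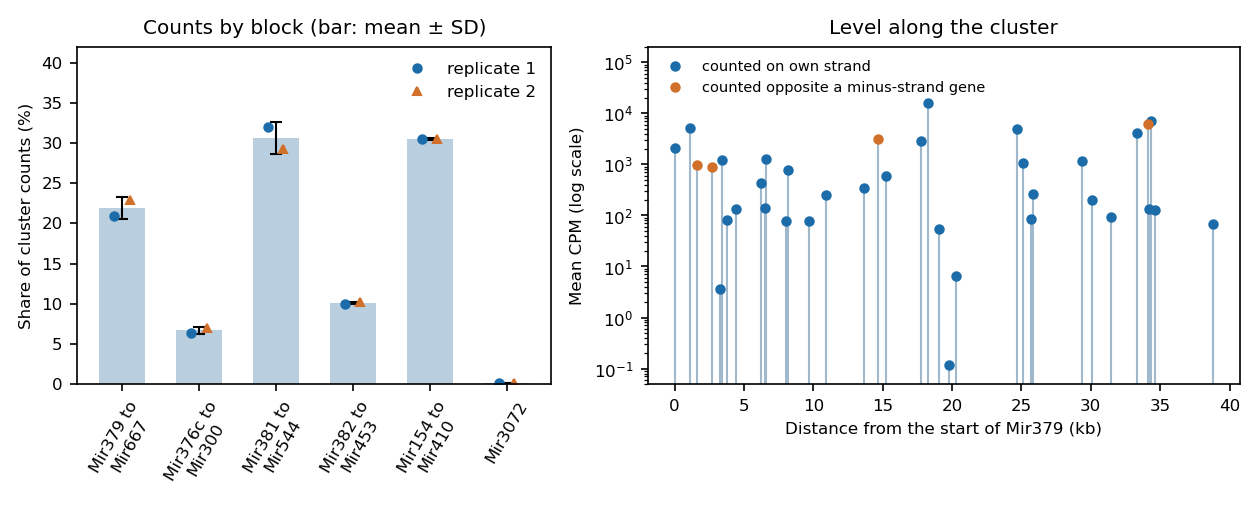
Left, share of the cluster's counts (%) in each of the 6 blocks, with bars for the mean, error bars for the SD (n = 2) and symbols for the libraries; right, mean CPM (log scale) of each member with counts by its distance in kb from the start of Mir379, orange where reads were counted opposite a minus-strand gene. The blocks around Mir487b (30.6%) and Mir369 (30.5%) hold the most, and the 5 blocks with more than 1 member mix high and low members.

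In the annotation, the non-coding gene Mirg, whose name stands for a microRNA-containing gene, covers the end of the cluster. Of the members 9 overlap an exon of Mirg, all detected, with 22.2% ± 1.27 of the cluster's counts and a median of 131 CPM. A further 5 lie in its introns, 4 of them detected, with 18.5% ± 1.07 and a median of 2617 CPM. The remaining 24, Mir487b among them, lie in no host gene of this annotation and held 59.3% ± 0.195. Exonic members were thus lower at the median, but Mir382 and Mir369 are exonic and among the leaders.

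Most members had fewer reads in replicate 2 than in replicate 1. The ratio of replicate 2 over replicate 1 after TMM scaling was below 1 for 29 of the 35 detected members (82.9%), beside 44.5% of other detected genes. The median log2 ratio was -0.17, and 0.02 over all detected genes. By an exact binomial test on counts, adjusted by Benjamini-Hochberg over 478 genes, 20 of 35 members (57.1%) were lower in replicate 2, where 21.1% of all tested genes were. One (2.86%) was higher, where 18.0% of all were, and 14 passed in neither direction. This test compares the libraries, covers counting error and detects small ratios at these counts. The differences were small: 20 of the 35 ratios lay within 0.2 of 0 on the log2 scale, and 1 member (2.86%) lay beyond 1.5-fold, where 11.3% of all detected genes did.

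The number of lower members depended on the scaling. With library totals in place of TMM 32 were lower and 3 higher, 28 and 0 of them past the test, at a median of -0.28. With DESeq2 size factors 31 were lower and 4 higher, 25 and 0 past the test, at -0.22. Over all tested genes the calls were 101 lower and 86 higher with TMM, 143 and 57 with library totals, and 121 and 67 with DESeq2 size factors. Library totals moved the median of all detected genes from 0.02 to -0.09, and the median of members minus that of all genes was -0.19 under each scaling.

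Among the leaders, Mir409 and Mir487b were the most different. The log2 ratio was -0.44 for Mir409 (95% interval -0.47 to -0.42, adjusted p = 1.85e-250 by the exact binomial test with Benjamini-Hochberg adjustment). It was -0.37 for Mir487b (-0.38 to -0.35), which also passed. Mir369, their neighbour in level, was at -0.01 (-0.04 to 0.01) and did not pass (adjusted p = 0.425, same exact test). Mir409 and Mir369 are neighbours but for Mir412 between them, and their intervals do not overlap. Without Mir487b the summed log2 ratio of the cluster was -0.16, and with it -0.21.

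The lowest ratios belonged to less abundant members. Mir668 (436 and 270 counts) was at -0.50 (-0.73 to -0.28) and Mir679 (689 and 429 counts) at -0.49 (-0.67 to -0.32), and both passed. Mir1193 was at -0.35, Mir541 at -0.24, and Mir382 and Mir381 at -0.21 each, all past the exact test. Mir379 (-0.04), Mir134 (-0.06) and Mir543 (-0.07) did not pass.

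The 1 higher call was Mir411, at 0.04 (0.01 to 0.07, adjusted p = 0.0212 by the exact binomial test). It was lost with library totals (-0.07) and with DESeq2 size factors (-0.01), both of which gave a ratio below 0, and Mir411 is also one of the members that share a stretch with another. The member beyond 1.5-fold was Mir1197, at 0.67 (-0.46 to 1.89) from 12 and 17 counts, and it did not pass (adjusted p = 0.425, exact binomial test). Among the 33 members with at least 50 counts, ratios ran from -0.50 to 0.13, at most 1.42-fold.

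**Figure D4:**
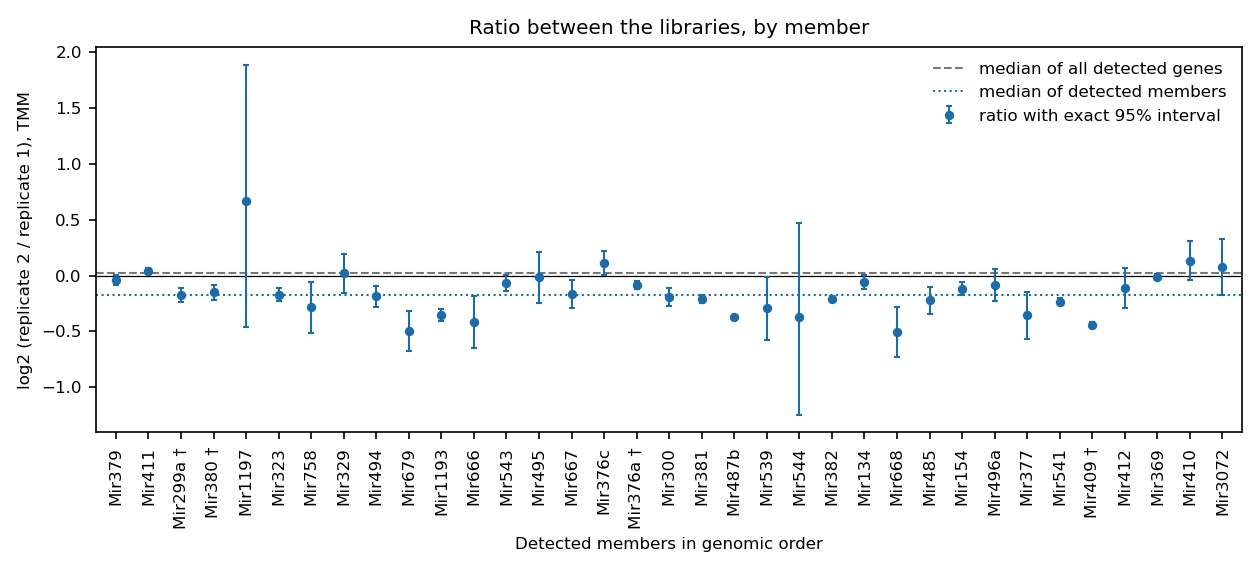
The log2 ratio of replicate 2 over replicate 1 (TMM scaling) for the 35 detected members in genomic order, with exact 95% intervals, the dotted line at the members' median (-0.17) and the dashed line at the median of all detected genes (0.02). Most points lie below 0, and the widest intervals belong to Mir1197 and Mir544.

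Neither level nor place along the cluster went with the ratio to any marked degree. Across the 35 detected members Spearman's rho of the ratio was -0.03 with CPM and -0.08 with the order along the cluster, and over 33 it was -0.21 with the hairpin's GC content, as descriptions over genes of the same libraries. By block the summed log2 ratio was -0.08 for Mir379 to Mir667, -0.08 for Mir376c to Mir300, -0.34 for Mir381 to Mir544, -0.19 for Mir382 to Mir453 and -0.21 for Mir154 to Mir410. Mir3072, the block of 1 gene, was at 0.08.

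Marker lists of cell types also differed between the libraries. The summed level of the neural list (8 of 10 detected) was 26888 CPM in replicate 1 and 23298 in replicate 2. Marker sums are CPM on library totals, while the ratios above were scaled by TMM. Under TMM the neural genes did not all fall: the log2 ratio was 0.01 for Mir92b and -0.29 for Mir137. The choroid plexus and multiciliated list (3 of 3) stood at 9620 and 6895 CPM, the trunk and hindbrain list (3 of 4) at 429 and 282, the erythroid list (2 of 2) at 148 and 75.5 and the muscle list (3 of 6) at 51.3 and 39.3. The erythroid genes moved in opposite directions, Mir451a from 507 to 134 counts and Mir144 from 109 to 164. Endothelial Mir126a was also higher in replicate 2, at 15837 and 18646 CPM. The part of these differences in the cluster's ratio was not tested. In whole tissue, fewer cells of a type and less RNA per cell cannot be told apart.

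The proximal microRNA genes of the same imprinted region, which start upstream of the window, held less. Of 20 genes 15 were detected, and they held 1.77% and 1.46% of counts (1.61% ± 0.221), so the distal cluster had 3.92 times as many counts in replicate 1 and 3.81 times in replicate 2 (3.86 ± 0.0750). That ratio rests in part on Mir487b, without which it was 2.86. The median detected gene stood at 482 CPM in the proximal group and 433 CPM in the distal cluster. The highest proximal gene was Mir127, a microRNA antisense to Rtl1, with 25445 and 22298 counts and 5875 ± 319 CPM. The lowest detected was Mir3070a with 12 counts in each library, at 2.96 ± 0.115 CPM. The proximal range was thus 1986-fold.

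Proximal genes were lower in replicate 2 as well. Of the 15 detected genes 13 had a ratio below 1, beside 48.03% of all detected genes, at a median log2 ratio of -0.25. By the exact binomial test 11 (73.3%) were lower, where 21.1% of all tested genes were, and 0 were higher, where 18.0% were. The summed log2 ratio was -0.17 there and -0.21 in the distal cluster. No test of the difference between the groups was made. Mir127 itself was at -0.00 and did not pass.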

How the data were processed

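Per the labels, small RNA under 30 nt from total RNA of mouse forebrain was sequenced in 2 libraries. The authors deposited, for each library, raw counts of the reads on every gene, for either strand, the gene's strand and the opposite strand. Build mm10 and annotation GENCODE M4 come from the deposited read-me texts. Aligner: not given in the sources used here, nor is the counter. Symbols and positions came from GENCODE M21 on the same build (1894 of 1973 genes matched), and sequences from RefSeq GRCm38.p6. Summary entries (unmapped 16.7% and 15.0%, multi-mapped 40.6% and 43.9%, unassigned 3.99% and 3.71%, ambiguous 0) stayed out of library sizes.

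Computed here were CPM, 95% Wilson intervals and log2 ratios of replicate 2 over replicate 1 with a prior count of 0.5 (interval ends exact), scaled by TMM in edgeR 4.0.16 (R 4.3.3). Each gene whose counts summed to 10 or more had a two-sided exact binomial test (scipy 1.17.1) with Benjamini-Hochberg adjustment and a threshold of 0.05. With 1 group, no quasi-likelihood test was possible. The script was tested on simulated data. The libraries were not copies of each other (chi-square 34585 on 380 degrees of freedom over detected genes). A copy means an exact stretch of at least 20 nt shared with an annotated microRNA transcript of another locus, on either strand. Seed groups share bases 2 to 8.

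Members and lists were chosen with earlier results of these data known. Full values are given for the 12 leading members, those counted on the opposite strand, the 3 lowest detected, those in a seed group and those beyond 1.5-fold. Members named for a role in neurons, a near-copy, a seed found elsewhere or a low ratio were chosen after their values were seen. Alternatives changed the scaling (library totals, or size factors of DESeq2 1.42.0), the detection floor, the strand, genes with copies, the denominator, the prior count, the gap between blocks, the seed and the replicates.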

Additional observations from a re-analysis of the deposited data

Results flagged for a closer look

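A signal appeared in counts that the values above do not use. Mir299b, whose opposite-strand reads were given under Mir299a, had own-strand reads as well: 6 in the first replicate and 9 in the second. Their mean of 7.5 lies above the limit of 3 counts that a count of 0 allows. The 18 nt of miR-299b-3p and the 21 nt of miR-299b-5p each lie whole within a mature strand of Mir299a. Which of the 2 genes gave these few reads was not tested.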

How the results depend on the processing

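Of 56 values recomputed under other settings, 38 stayed within the spread between replicates or within 1.5 times the count, 18 moved and 0 reversed. Some of the 38 were fixed in advance. The share, fold range and distal to proximal ratio of 1 library alone make up that spread. A floor of 1 count in each library kept the same 35 members, so their fold range and median ratio could not move. The cluster's share of 6.24% was 2.41% of all reads, 5.18% without the opposite-strand members, 4.04% without members that have copies and 4.61% without Mir487b. The alternatives without Mir487b were chosen after seeing the data. From 1 library alone the share was 5.55 to 6.93%. The fold range of 4545 was 304 with at least 50 counts in each library and 1976 without members that have copies or without Mir487b, and 3169 to 6607 from 1 library alone. Without opposite-strand members 16 of 31 members were lower in replicate 2, and with library totals 28 of 35, beside 20 of 35. Other settings gave numbers between these. Library totals also raised the calls over all 478 tested genes, from 101 to 143. The 1 member higher became 0 by the exact binomial test with library totals, with DESeq2 size factors and without members that have copies. Members beyond 1.5-fold numbered 2 with library totals and 0 with at least 50 counts. With library totals the median log2 ratio was -0.28. The ratio of distal to proximal counts was 3.17 without opposite-strand members, 2.51 without members that have copies and 2.86 without Mir487b, and 3.81 to 3.92 from 1 library alone. The block with the most counts by the mean, Mir381 to Mir544 at 30.6%, led in replicate 1 (32.1%). In replicate 2 it held 29.2%, and Mir154 to Mir410 led at 30.6%. The leading block also changed under each alternative. With a gap of 3 kb it was Mir379 to Mir544, which takes in Mir381 to Mir544, at 59.3%. Without members that have copies, Mir487b among them, it was Mir154 to Mir410, at 47.1%. Where an alternative leaves genes out, that construction moves the value; otherwise the cause was not tested. No paired analysis was possible because there is 1 group. With 2 libraries an SD is imprecise, members under 50 counts have wide intervals, and reads that map to several places are in no value given.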
